A study of Canis lupus familiaris with 7 samples.

Results

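*NNAT* (neuronatin) and 9 other genes known as imprinted in other mammals (*DLK1*, *PEG3*, *PEG10*, *PLAGL1*, *MEST*, *GRB10*, *SGCE*, *CDKN1C* and *PHLDA2*) were looked up by symbol in the RNAseq table, which listed 24580 genes. The table carried 8 of the 10. No row of it bore the symbol *CDKN1C* or *PHLDA2*, so neither is described. Of the 8 genes, 7 reached a mean of 1 FPKM over the samples and entered the comparison across genes, and *DLK1* did not. FPKM stands for fragments scaled to transcript length and to the mapped fragments of the library, so levels of different genes are compared per length. *NNAT* had been among the genes lowest in tumor tissue in an earlier look at these data, and the others were added around it. Their tumor against non-tumor differences are therefore given as a description, with a standard error and no p. Counts of them past a limit stand beside the share over all genes and are not read as a test.

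RNA came from dogs with osteosarcoma (OSA), a malignant tumor of bone-forming cells. There were 3 OSA tumor samples (T1, T3, T10), with the diagnosis made on histopathology, and 4 non-tumor samples (N1, N3, N8, N9), each a piece of bone taken beside a tumor and grossly free of it. The tissue was collected at amputation or directly after euthanasia and had received no treatment named in the labels, which give no breed, age or sex. The study calls the non-tumor tissue matched, but the labels do not say whether a tumor and a non-tumor sample with the same number came from the same dog. A bulk piece of bone holds many cell types, so fewer cells of a type and less RNA per cell cannot be told apart.

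An imprinted gene is expressed mainly from the copy inherited from 1 parent, under the control of DNA methylation set in the germ line. Many such genes lie in clusters under shared control, are most active in the embryo and placenta, and act on growth, on fat and muscle development and on insulin-like growth factor (IGF) signalling. Loss of imprinting can change the dose of these genes in tumors. FPKM values do not tell the parental copies apart, and whether each gene is imprinted in the dog was not measured.

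Several libraries stood apart, which bears on nearly every gene below. N1 resembled T1 more than any other sample, with a Pearson correlation across genes of 0.917 against 0.550 to 0.812 for the other 20 of the 21 pairs of samples, although the libraries shared no equal value above 0. In 65.1% of the 13507 tested genes, N1 lay nearer to the tumor mean than to the mean of the other non-tumor samples. Whether the library labelled N1 holds tumor tissue was not tested, so what a non-tumor mean with N1 in it stands for is uncertain. N8 and N9 held skeletal muscle transcripts, with 112000 and 82293 FPKM summed over 14 muscle markers, against 1437 in N3, 109 in N1 and 12.6 to 34.6 in the tumors. In N9, 2 of the 14 markers were listed at 0. Osteoblast markers summed to 114 to 1507 FPKM in non-tumor and 940 to 3570 FPKM in tumor samples with no marker at 0 in any sample. FPKM sums ran from 539648 to 1752340 per sample, and the fragments behind 1 FPKM, read from the steps between low values, ranged from 0.544 (N8) to 1.44 (T10) times those of N1.

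*NNAT* was the member of the group with a clear separation of tumor from non-tumor tissue. The gene (ENSCAFG00000008786, chr24:26118991-26120649 in CanFam3.1) encodes a small membrane proteolipid of the endoplasmic reticulum, which is known from developing brain, adipocytes and pancreatic islets and is related to regulators of the calcium pump SERCA. It measured 5.86 FPKM (N1), 6.49 (N3), 11.2 (N8) and 4.47 (N9). In the tumors it was at 0.925 (T1), 0.437 (T3) and 0.257 FPKM (T10). Every non-tumor sample lay above every tumor sample, and the lowest non-tumor value (N9) was 4.84 times the highest tumor value (T1). The means were 7.0 ± 2.9 FPKM (SD, n = 4) and 0.539 ± 0.346 FPKM (SD, n = 3), a ratio of 13.0. On the log2(FPKM + 1) scale, which understates the change of low genes, the tumor samples were lower by 2.34 (log2 fold change -2.34, SE 0.49). *NNAT* exceeded 63.9% to 75.9% of all listed genes in the non-tumor samples and 43.3% to 48.3% in the tumors.

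**Figure D1:**
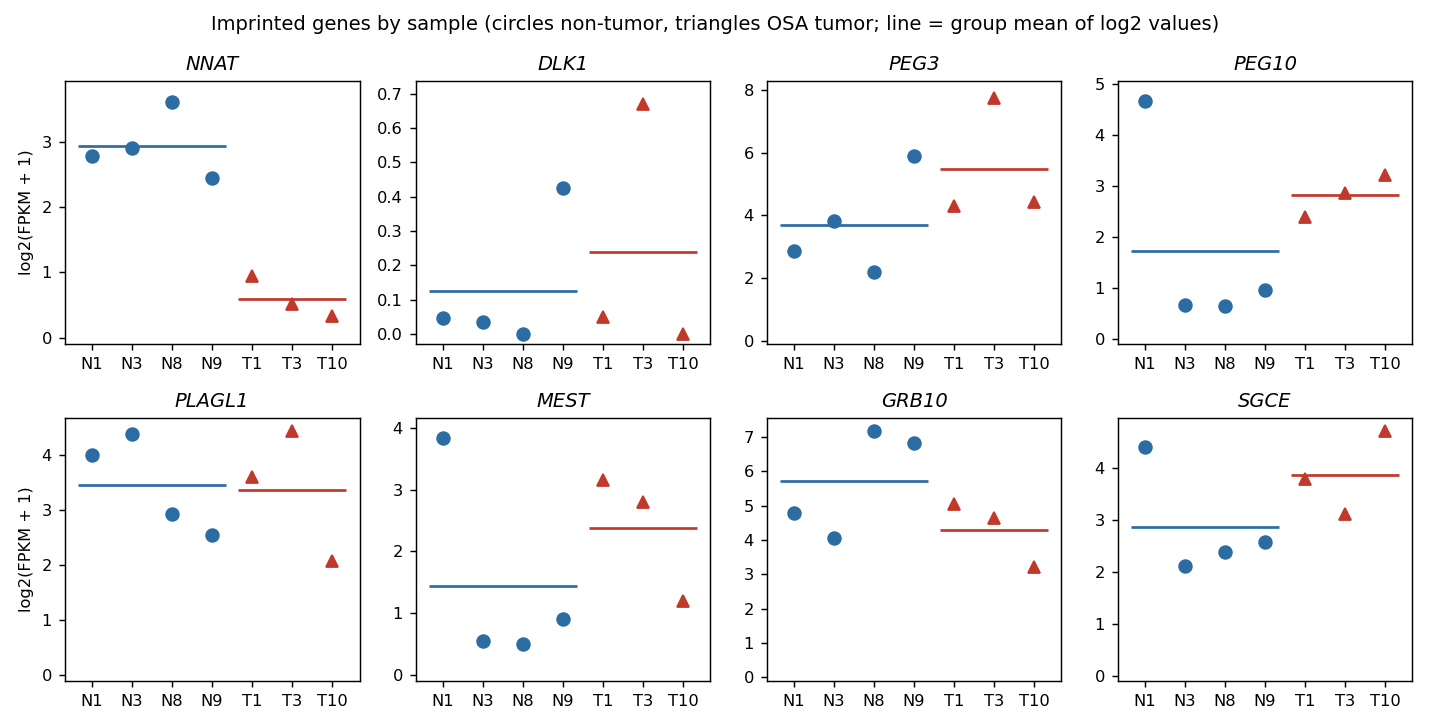
Each panel plots 1 gene, with the sample on the x axis and log2(FPKM + 1) on the y axis, whose range differs between panels. Circles are the 4 non-tumor and triangles the 3 OSA tumor samples, and the line is the group mean of the log2 values. *NNAT* is the panel in which the groups do not overlap, N1 stands above the other non-tumor samples in *PEG10*, *MEST* and *SGCE*, and T3 is the highest sample in *PEG3*.

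In the pair of libraries most alike, *NNAT* was 6.33 times as high in N1 as in T1, and 2.15% of tested genes differed at least as far between them. These are among the values for which *NNAT* was chosen and are given as a description. N1 sat among the other non-tumor samples, which averaged 7.37 ± 3.43 FPKM (SD, n = 3) without it. Of the muscle-rich libraries, N8 was the highest and N9 the lowest non-tumor sample in *NNAT*. With N8 and N9 left out together, an alternative chosen after seeing the data, the log2 fold change was -2.24 (SE 0.48). Markers of adipocytes, a cell type in which *NNAT* is known to be expressed, summed to 59.8 to 789 FPKM over 6 genes in non-tumor and 34.3 to 134 FPKM in tumor samples. *CD36* and *LPL* made up most of the sum in N1 (30.5 and 25.3 of 59.8 FPKM). The lipid droplet genes *PLIN1* (1.28 to 19.6 FPKM in non-tumor and 0.179 to 0.50 FPKM in tumor samples) and *PLIN4* (2.46 to 86.6 and 0.0216 to 1.63 FPKM) did not overlap between the groups, while the other 4 (*CIDEC*, *LEP*, *CD36* and *LPL*) did. None of the 6 adipocyte markers was at 0 except *LEP* in T3. Endothelial markers were at 62.6 to 287 FPKM in non-tumor and 18.9 to 83.8 FPKM in tumor samples over 5 genes. The part of muscle, adipocyte and endothelial transcripts in the *NNAT* difference was not tested.

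The neighbour of *NNAT* had another pattern. *BLCAP*, a cell cycle regulator in whose intron *NNAT* lies in mammals, is listed by the authors at chr24:26116890-26117150, 1840 bases from *NNAT*, and in the RefSeq annotation of another dog assembly (UU_Cfam_GSD_1.0) *NNAT* lies within it. *BLCAP* measured 24.2 FPKM (N1), 27.0 (N3), 122 (N8) and 257 (N9), and 29.8, 19.8 and 10.7 FPKM in T1, T3 and T10. It was highest in N8 and N9, the muscle-rich libraries, and N1 and N3 lay within the tumor range. Its log2 fold change of -1.82 (SE 0.85) did not pass the limits used throughout, namely an at least 2-fold difference whose unadjusted p is below 0.05 (limma, adjusted p = 0.693). It passed in 5 of 20 alternatives, among them without N1 (-2.30) and without N3 (-2.25), and was -0.44 with N8 and N9 left out. The interval listed for *BLCAP* is shorter than that of *NNAT* (1659 bases), and whether it covers the whole gene was not tested. The ratio of *BLCAP* to *NNAT* was 4.13 in N1 and 4.15 in N3, and 10.9 in N8. It was 57.5 in N9, above the 32.2 to 45.2 of the tumors. How the reads were assigned by strand is not given in the sources used here, so reads of *NNAT* and of an overlapping *BLCAP* transcript cannot be told apart.

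**Figure D2:**
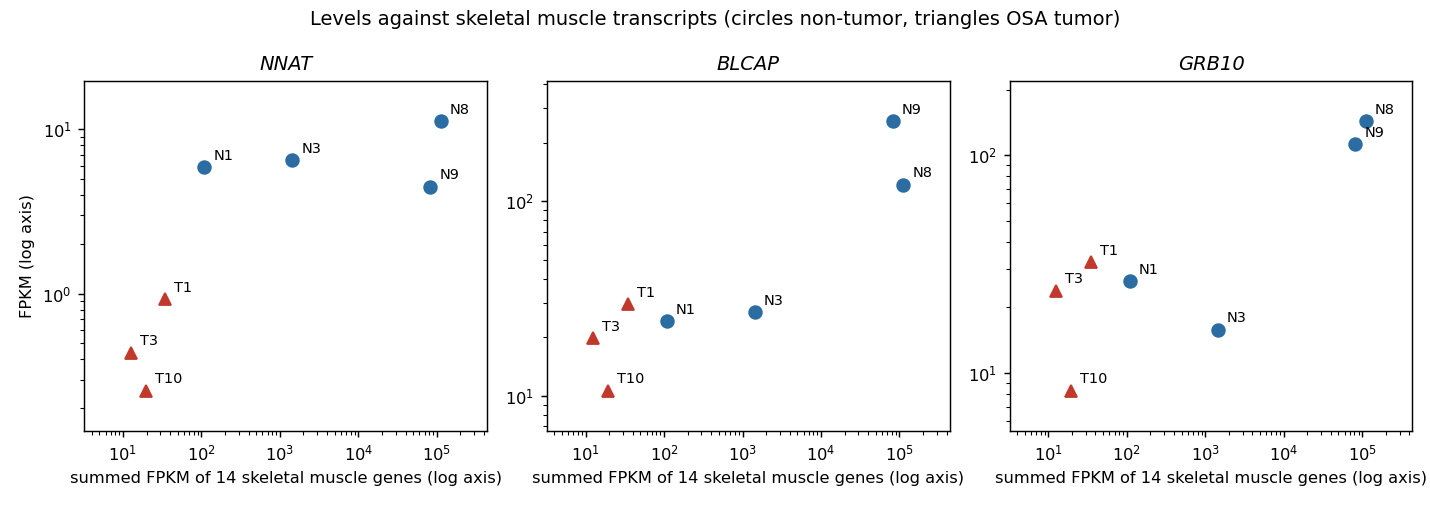
The x axis is the summed FPKM of 14 skeletal muscle genes and the y axis the FPKM of *NNAT*, *BLCAP* or *GRB10*, both on log axes, with 1 labelled point per sample (circles non-tumor, triangles OSA tumor). *BLCAP* and *GRB10* are highest in N8 and N9, where the muscle sum is 112000 and 82293 FPKM, while *NNAT* in N1 and N3 is at 5.86 and 6.49 FPKM at muscle sums of 109 and 1437 FPKM.

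The 5 genes with a symbol whose profile over the 7 samples was most like that of *NNAT*, by the root mean square distance between log2(FPKM + 1) values centred on each gene's mean, were *PKIG* (0.43), *S100B* (0.48), *HSL* (0.49), *UROS* (0.50) and *C3orf18* (0.53). *PKIG*, an inhibitor of protein kinase A (chr24:32078624-32111247), was at 6.82 to 14.3 FPKM in non-tumor and 1.83 to 2.60 FPKM in tumor samples. *S100B*, a calcium-binding protein of glia, Schwann cells and adipocytes, was at 1.04 to 7.65 FPKM in non-tumor samples, at 0.562 FPKM in T1 and listed at 0 in T3 and T10. *HSL*, the hormone-sensitive lipase of adipocytes, was at 3.30 to 20.0 FPKM in non-tumor and 0.470 to 2.2 FPKM in tumor samples. *UROS*, an enzyme of heme synthesis, was at 12.1 to 38.4 and 4.28 to 7.54 FPKM. *C3orf18* was at 2.2 to 7.05 and 0 to 0.985 FPKM. They were picked from all tested genes with a symbol for likeness to a gene that separates the groups, so their own separation is no further result. Among the tested genes of the group itself, the nearest to *NNAT* was *GRB10*, at a distance of 1.12, with 17.2% of tested genes with a symbol nearer.

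*DLK1* (ENSCAFG00000017925, chr8:68961744-68970408), a membrane protein of preadipocytes and other progenitor cells that is related to Notch ligands and holds back fat cell differentiation, was near the detection limit. It was at 0.0318 FPKM in N1, 0.0238 in N3 and 0.342 in N9, and listed at 0 in N8. In the tumors it was at 0.0339 FPKM in T1 and 0.591 in T3, and listed at 0 in T10. Scaled by relative depth, these values matched whole multiples of the smallest one above 0 (T1) to within 0.03 of a step. In such steps they stood at 1, 1, 0 and 7 in N1, N3, N8 and N9. They stood at 1, 23 and 0 in T1, T3 and T10, where T1 is 1 by construction. Whether 1 step is 1 fragment is not known. T3 and N9 thus held nearly all of the signal, and the groups overlapped at 0.0993 ± 0.162 FPKM (SD, n = 4) and 0.208 ± 0.332 FPKM (SD, n = 3). *DIO3*, an enzyme that inactivates thyroid hormone and the *DLK1* cluster's gene at its other end (726370 bases away), was at 14.4 FPKM in T3, at 3.55 FPKM in N3 and at 0.0637 to 1.44 FPKM in the other samples. Its log2 fold change was 0.67 (SE 0.92) and did not pass the limits.

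*GRB10*, an adaptor protein that binds the insulin and IGF receptors and restrains their signal, was the most abundant of the 8 genes in 4 samples (N1, N8, N9 and T1) and ranked 2nd or 3rd in the rest. The gene (ENSCAFG00000003422, chr18:1896483-2014836) measured 26.5 FPKM (N1), 15.8 (N3), 142.8 (N8) and 112 (N9). It was at 32.2 (T1), 23.9 (T3) and 8.29 FPKM (T10). N8 and N9 were the high samples, and N1 and N3 lay inside the tumor range. The means were 74.4 ± 62.8 FPKM (SD, n = 4) and 21.5 ± 12.1 FPKM (SD, n = 3), with a log2 fold change of -1.41 (SE 0.84). With N8 and N9 left out it was -0.12 (SE 0.70). With the shared sample number as a fixed block over N1, N3, T1 and T3, it was 0.42 (SE 0.44).

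*PLAGL1* and *PEG3* encode zinc finger proteins of the nucleus, the first a regulator of other imprinted genes and of the cell cycle, the second of maternal behaviour, metabolism and cell death. *PLAGL1* (ENSCAFG00000000318, chr1:35418400-35425360) measured 14.9 FPKM (N1), 19.8 (N3), 6.64 (N8) and 4.85 (N9), and 11.1, 20.8 and 3.22 FPKM in T1, T3 and T10. The groups covered nearly the same range, at 11.6 ± 7.04 FPKM (SD, n = 4) and 11.7 ± 8.79 FPKM (SD, n = 3). The log2 fold change was -0.09 (SE 0.69) and had either sign when single samples were left out, from -0.62 without T3 to 0.56 without T10.

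*PEG3* (ENSCAFG00000029153, chr1:101108258-101123680) differed widely between samples of the same group. It measured 6.28 FPKM (N1), 13.3 (N3), 3.61 (N8) and 58.1 (N9). In the tumors it was at 18.9 FPKM in T1, 20.3 in T10 and 210.7 in T3. T3 alone held 84.3% of the tumor sum, and N9 lay above T1 and T10, so the groups overlapped. The means were 20.3 ± 25.5 FPKM (SD, n = 4) and 83.3 ± 110 FPKM (SD, n = 3). The log2 fold change of 1.79 (SE 1.05) was 0.67 (SE 0.99) without T3 and 2.52 (SE 0.95) without N9. With the sample number as a block it was 2.67 (SE 0.75, fixed, over N1, N3, T1 and T3) and 2.07 (SE 0.86, random). *PEG3* was 3.01 times as high in T1 as in N1, a difference that 3.62% of tested genes reached. T3 was also the sample with the highest summed neuron and Schwann cell markers, at 37.5 FPKM over 9 genes against 0.302 to 10.3 FPKM in the others, mostly from *STMN2* (28.4 FPKM) and *SNAP25* (7.29 FPKM), while the Schwann cell marker *SOX10* was at 0.0213 FPKM in T3. The part of these transcripts in the *PEG3* level was not tested. *ZIM2*, the cluster's next gene, was listed at 0 in every sample but T10 (0.165 FPKM).

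*PEG10*, *SGCE* and *MEST*, all on chromosome 14, shared a pattern that *NNAT* did not have: low in N3, N8 and N9, and higher in N1 and in the tumors, although *MEST* in T10 was close to the low samples. *PEG10* (ENSCAFG00000032379, chr14:20121414-20133980) descends from a retrotransposon and is needed for the placenta. *SGCE* (ENSCAFG00000002104, chr14:20052730-20121164) encodes epsilon-sarcoglycan, a membrane protein linked to the dystrophin complex, and its interval ends 249 bases before that of *PEG10*. *MEST* (ENSCAFG00000001450) encodes a hydrolase-like protein linked to growth and fat expansion. The table gives *MEST* and *COPG2* a joint interval (chr14:6340992-6449135), which also holds 2 further features.

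*PEG10* measured 0.596 FPKM (N3), 0.572 (N8) and 0.943 (N9), and 24.1 FPKM in N1. It was at 4.24, 6.26 and 8.28 FPKM in T1, T3 and T10. N1 was thus higher than every tumor and held 92.0% of the non-tumor sum. With N1 the group means were nearly equal, 6.56 ± 11.7 FPKM (SD, n = 4) against 6.26 ± 2.02 FPKM (SD, n = 3), and the log2 fold change was 1.09 (SE 0.95). Without N1 the non-tumor mean was 0.704 ± 0.208 FPKM (SD, n = 3), the tumor mean was 8.90 times as high, and the log2 fold change was 2.06 (SE 0.50). The gap between N1 and T1 was wide in this gene too: N1 was 5.69 times as high, a difference that 1.32% of tested genes reached.

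*SGCE* measured 3.32 FPKM (N3), 4.22 (N8) and 4.97 (N9), and 20.1 FPKM in N1. In the tumors it was at 12.7 (T1), 7.64 (T3) and 25.1 FPKM (T10). N1 lay within the tumor range, and the other non-tumor samples lay below it. The means were 8.14 ± 7.97 FPKM (SD, n = 4) and 15.2 ± 9.0 FPKM (SD, n = 3), with a log2 fold change of 1.00 (SE 0.66). Without N1 the non-tumor mean was 4.17 ± 0.826 FPKM (SD, n = 3), the tumor mean was 3.64 times as high, and the log2 fold change was 1.51 (SE 0.56). The ratio of *SGCE* to *PEG10* was 0.831 in N1 and 1.22 to 3.04 in the tumors, and 5.27 to 7.38 in N3, N8 and N9, so *PEG10* varied more than its neighbour.

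*MEST* measured 0.460 FPKM (N3), 0.409 (N8) and 0.867 (N9), and 13.2 FPKM in N1. It was at 7.86 (T1), 5.95 (T3) and 1.29 FPKM (T10). T10 was close to the low non-tumor samples and N1 held 88.4% of the non-tumor sum. The means were 3.74 ± 6.33 FPKM (SD, n = 4) and 5.03 ± 3.38 FPKM (SD, n = 3), with a log2 fold change of 0.94 (SE 0.89). Without N1 the non-tumor mean was 0.579 ± 0.251 FPKM (SD, n = 3), the tumor mean was 8.70 times as high, and the log2 fold change was 1.73 (SE 0.62). *COPG2*, a coat protein gene that shares the interval, ranged from 2.85 to 7.36 FPKM, so its ratio to *MEST* ran from 0.300 in N1 to 16.0 in N3.

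Over the 7 samples *SGCE* was the 50th nearest tested gene with a symbol to *PEG10* (distance 0.71) and *MEST* the 111th (distance 0.80), although *MEST* lies in another cluster. The 3 genes share the same libraries, and chondrocyte markers were also higher in N1 (299 FPKM over 7 genes) and in the tumors (119 to 798 FPKM) than in N3, N8 and N9 (3.13 to 30.4 FPKM) when summed. Most single markers differed from the sum, and *SOX9* and *MATN3* alone followed it in every sample. *COL2A1* was at 0.547 FPKM in T10 against 3.89 FPKM in N3. In T3, *ACAN* (8.59 FPKM), *COL11A2* (3.41 FPKM) and *COL9A1* (0.248 FPKM) lay below N3 (10.1, 4.54 and 1.30 FPKM). *MATN1* was listed at 0 in N1 and T10 and was at 0.0485 FPKM in N3. The part of those transcripts was not tested.

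**Figure D3:**
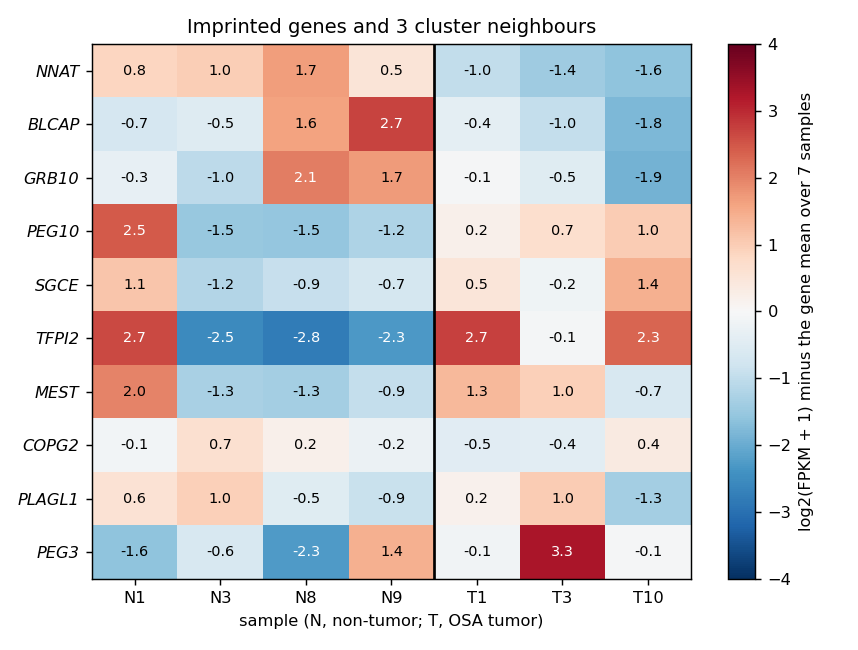
Each row is a gene and each column a sample, and the colour and number give log2(FPKM + 1) minus the gene's mean over the 7 samples. *BLCAP*, *TFPI2* and *COPG2* are neighbours of *NNAT*, of *PEG10* with *SGCE*, and of *MEST*. *PEG10*, *SGCE*, *TFPI2* and *MEST* are above their mean in N1 and below it in N3, N8 and N9, and *NNAT* is above its mean in all 4 non-tumor samples.

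Across the group, 1 of the 7 tested genes, *NNAT*, was past the limits in the tumor against non-tumor comparison, where 6.86% of all tested genes were (3.58% lower and 3.28% higher in tumor). Groups did not overlap in 1 of the 7, again *NNAT* with every tumor below, against 5.85% of all tested genes (2.81% with every tumor below). The number past the limits was 4 of 7 without N1 (*NNAT* lower, with *PEG10*, *MEST* and *SGCE* higher), where 14.8% of all tested genes were. It was 2 without N3 (with *GRB10* lower) and 2 without N9 (with *PEG3* higher), where 6.54% and 5.09% of all tested genes were. Because the genes were chosen with this contrast known, nothing is read from these counts. An adjusted p under 0.05 was reached by no tested gene in the main fit (0 of 13507 by limma, with 927 at an unadjusted p under 0.05). In the alternatives it was reached by 3 genes after rescaling every library to an equal sum, by 1 without T1 and by 1 without N1 and T1. Against N3, N8 and N9 alone, the tumors lay above in 3 of 7 (*PEG10*, *SGCE*, *MEST*), where 9.72% of all tested genes did, and below in 1 (*NNAT*), where 9.31% did. N1 lay nearer to the tumor mean in 5 of the 7, the exceptions being *NNAT* and *PEG3*.

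A longer list of 62 other genes known as imprinted in human or mouse was read in the same fit, to see whether other imprinted genes differed between tumor and non-tumor tissue. The table carried 46 of them, and 30 were tested. Of these 30, 1 (3.33%) passed the limits, against 6.86% of all tested genes. The number was 0 without N8, without N9 or without T10, 2 without N3 or without T3, and 6 without N1. Over all tested genes the share past the limits also moved, to 2.36% without N8, 5.09% without N9, 3.14% without T10, 6.54% without N3, 4.46% without T3 and 14.8% without N1. The median log2 fold change was -0.01, against -0.02 over all tested genes, and 15 genes were higher and 15 lower in tumor. In 22 of the 30, N1 lay nearer to the tumor mean than to the other non-tumor samples.

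**Figure D4:**
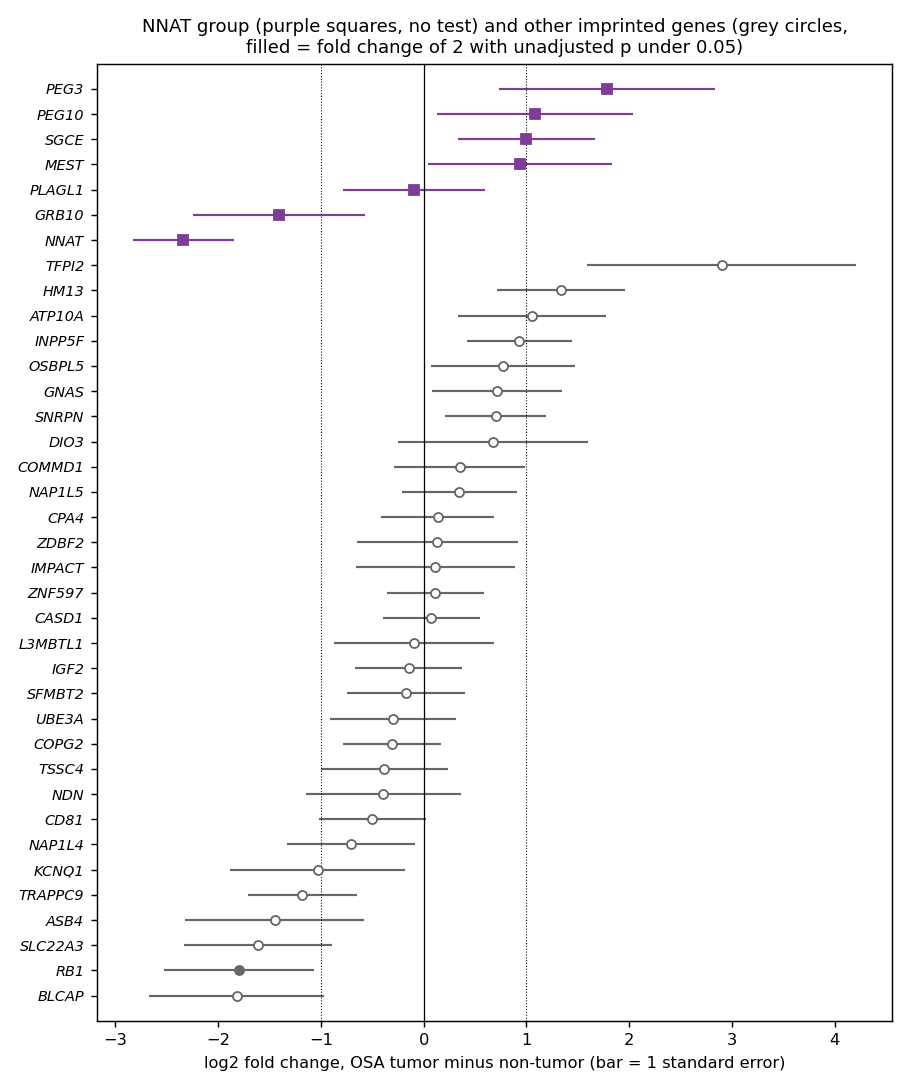
The x axis is the log2 fold change of OSA tumor minus non-tumor samples and each row is a gene, with a bar of 1 standard error. Purple squares are the 7 imprinted genes described above, given without a test, and grey circles the 30 others, filled where the gene passed the limits (*RB1* alone). *NNAT* is at -2.34, and the 30 others spread from -1.82 (*BLCAP*) to 2.90 (*TFPI2*).

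The gene past the limits was *RB1*, the retinoblastoma tumor suppressor, which is imprinted in human cells. It measured 50.3 FPKM (N3), 37.6 (N8) and 47.0 (N9), 5.40 FPKM in N1, and 6.89 to 7.26 FPKM in the tumors. N1 was the lowest sample of all, so the groups overlapped. The log2 fold change was -1.80 (SE 0.73, unadjusted p = 0.0354 and adjusted p = 0.693 by limma), and the exact permutation test gave p = 0.229, where the smallest two-sided p that 4 against 3 samples allow is 0.0571. The call was lost on leaving out any 1 of N3, N8, N9, T1, T3 or T10 and on rescaling every library to an equal sum (-1.60), and without N1 the log2 fold change was -2.51. *TRAPPC9*, a vesicle transport gene named here after its values were seen, was the 1 gene of the 30 whose groups did not overlap. Over all tested genes, 5.85% did not overlap, 2.81% with every tumor below. *TRAPPC9* was at 8.25 to 15.6 FPKM in non-tumor and 1.77 to 7.71 FPKM in tumor samples. Its log2 fold change was -1.18 (SE 0.53, adjusted p = 0.693 by limma). The exact permutation test gave p = 0.0571, adjusted 0.583 over 51 genes.

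Of the cluster neighbours, *TFPI2*, a serine protease inhibitor 717417 bases from *PEG10*, was likewise low in N3, N8 and N9 and high in N1 and the tumors, over a wider range. It was at 3.09, 2.38 and 3.85 FPKM in N3, N8 and N9, at 148 FPKM in N1, and at 158, 21.2 and 117 FPKM in T1, T3 and T10. Its log2 fold change of 2.90 (SE 1.31, adjusted p = 0.693 by limma) did not pass the limits, but it did in 9 of 20 alternatives, among them without N1 (4.20) and without T3 (3.77). *CASD1*, which lies between *TFPI2* and *SGCE*, was at 4.94 to 10.9 FPKM with a log2 fold change of 0.08 (SE 0.47). *ASB4*, on the far side of *PEG10*, was at 4.76 FPKM in N8 and 8.64 in N9, the muscle-rich libraries, and listed at 0 elsewhere. Neither these nor *COPG2* (-0.31, SE 0.48) and *CPA4* (0.14, SE 0.55) near *MEST* passed the limits, although *ASB4* (-1.45, SE 0.87) did without N1 or without N3 (-1.93 each).

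*IGF2*, the growth factor at the cluster that in mammals holds *CDKN1C* and *PHLDA2*, measured 11.2 FPKM (N1), 22.6 (N3), 8.28 (N8) and 8.47 (N9), and 6.79, 16.4 and 9.92 FPKM in T1, T3 and T10. The groups overlapped throughout, with a log2 fold change of -0.15 (SE 0.52) and a 95% interval of -1.32 to 1.03. *H19*, the untranslated RNA of that cluster, was listed at 0 in all 7 samples. The other genes of the cluster on the list with a mean of at least 1 FPKM were *CD81* (-0.50, SE 0.52), *TSSC4* (-0.38, SE 0.61), *KCNQ1* (-1.03, SE 0.85), *NAP1L4* (-0.71, SE 0.62) and *OSBPL5* (0.78, SE 0.70), and no log2 fold change among them passed the limits.

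Among 11 genes of the IGF axis, on which *GRB10* and *IGF2* act, 1 (9.09%) passed the limits, against 6.86% of all tested genes. *IGFBP3*, which binds IGFs in serum and tissue, was at 1.91, 1.13, 0.449 and 1.19 FPKM in N1, N3, N8 and N9 and at 9.53, 18.4 and 1.25 FPKM in T1, T3 and T10. T1 and T3 were high and T10 lay within the non-tumor range. The log2 fold change was 1.87 (SE 0.73, adjusted p = 0.693 by limma), and the call was lost without N3, N8, N9, T1 or T3. *IGF1R*, the IGF receptor, named here after its values were seen, had a log2 fold change of 1.03 (SE 0.57) that did not pass, with 24.8 FPKM in T10 and 3.51 to 7.27 FPKM in the other samples. *IGFBP7*, likewise named after its values were seen, was the 1 gene of the 11 whose groups did not overlap. It was at 94.3 to 156 FPKM in non-tumor and 172 to 210 FPKM in tumor samples. Over all tested genes, 5.85% did not overlap, 3.04% with every tumor above. The log2 fold change of *IGFBP7*, 0.53 (SE 0.47), did not pass the limits.

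Among 10 tested genes tied by background knowledge to neuronatin (the SERCA pumps and phospholamban) or to *DLK1* (Notch receptors, ligands and targets), 3 passed the limits, where 6.86% of all tested genes did. *ATP2A1*, the SERCA pump of fast muscle fibres, was at 2823 and 3506 FPKM in N8 and N9, at 7.89 and 3.87 FPKM in N1 and N3, and at 0.524 to 5.84 FPKM in the tumors. Its log2 fold change of -5.74 (SE 2.30) was -1.29 and did not pass without N8 and N9, the libraries with muscle transcripts. *ATP2A3*, the SERCA pump of blood cells among others, was at 16.7 and 22.3 FPKM in N3 and N8, at 0.656 and 3.11 FPKM in N1 and N9, and at 0.170 to 0.784 FPKM in the tumors (log2 fold change -2.36, SE 0.90). Erythroid markers were also highest in N3 and N8, at 2984 and 4458 FPKM over 8 genes against 3.67 to 190 FPKM elsewhere, and their part was not tested. *HEY1*, a Notch target, was at 16.9, 7.22, 1.38 and 5.83 FPKM in N1, N3, N8 and N9 and at 43.3, 38.7 and 10.8 FPKM in T1, T3 and T10, with N1 above T10 (log2 fold change 1.97, SE 0.75). The adjusted p was 0.693 by limma for all 3. Each call was lost on leaving out 1 library: *ATP2A1* without N8, N9, T1, T3 or T10 (and with no filter on low values), *ATP2A3* without N3, N8, T1, T3 or T10, and *HEY1* without N8, T1 or T3. Over both lists, 4 of 21 genes passed. The number was 0 without N8 or without T1, 1 without T3, and 2 without N3 or without N9. It was 4 without T10 and 5 without N1. Over all tested genes the share past the limits was 2.36% without N8, 8.99% without T1 and 4.46% without T3. It was 6.54% without N3, 5.09% without N9, 3.14% without T10 and 14.8% without N1.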

How the data were processed

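RNA of 4 non-tumor and 3 OSA tumor samples was sequenced from stranded paired-end libraries. Per the labels and methods, the authors used Trim Galore for trimming, TopHat for alignment to CanFam3.1 and Cufflinks/Cuffdiff for FPKM per gene and sample. The FPKM table was used as deposited, in all 7 columns, with 0 per-sample columns left unused. Tool versions, the scaling between libraries and the use of strand are not given in the sources used here. Of the authors' second table, which holds their group means, fold changes, p-values and q-values, the gene intervals alone were used, with 1 added to each start. FPKM hold no counts, so depth per sample is known only relative to N1 (the study gives 1 approximate read number for all samples), and a value of 0 may be a failed estimate.

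Genes averaging 1 FPKM or more across the 7 samples were compared on log2(FPKM + 1) with limma 3.58.1 in R 4.3.3 (mean-variance trend). The limits, taken from the study's methods, were a change of 1 or more on the log2 scale in either direction and an unadjusted p below 0.05. Adjustment by Benjamini-Hochberg ran over the 13507 tested genes. Exact two-sided permutation tests over all 35 label assignments covered 51 genes outside the group (Python 3.11.15, scipy 1.17.1). The fit was also run on simulated data whose noise was independent between samples. That run does not cover samples that resemble each other, as N1 and T1 do. P-values measure the spread between these samples. The genes described, the lists and the marker lists were chosen with earlier results of these data known. Named were the 10 genes, listed genes past the limits, cluster neighbours averaging 1 FPKM or more, and the 5 genes most like *NNAT*; others were named after their values were seen. Of the 10 symbols, 10 occur in RefSeq, whose assembly differs, so it gave names and neighbours only. Alternatives were pseudocounts of 0.1 and 0.01, other filters and scalings, no trend, sample weights, the sample number as a block, and samples left out.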

Additional observations from a re-analysis of the deposited data

Results flagged for a closer look

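In 26 genes of the report, the highest or lowest of the 4 non-tumor samples was compared with its nearest neighbour by the gap over the group's whole range, on log2(FPKM + 1). Chance puts about 1 in 20 groups of 4 above the 95% critical value of Dixon's test, and 7 of the 26 genes exceeded it, 5 of them through N1. Over all tested genes 6.94% exceeded it, 3.1% through N1. Some of the 26 genes were described for the position of N1. N1 was the extreme sample in *PEG10* (0.923, at 24.1 FPKM), *TFPI2* (0.905, at 148 FPKM), *MEST* (0.878, at 13.2 FPKM), *RB1* (0.863, at 5.40 FPKM) and *CD81* (0.842, at 141 FPKM). It was the highest in the former 3 and the lowest in the latter pair. The 26 genes come from the same 4 libraries and are not independent. N9 was the extreme sample in *DLK1* (0.894, at 0.342 FPKM, or 7 of the steps described above). N8 was the extreme sample in *TSSC4* (0.938, at 16.8 FPKM), whose interval the table shares with *CD81*.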

How the results depend on the processing

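*NNAT* was chosen for this contrast, so its values here are no independent support. Its log2 fold change was -3.53 and -3.78 with pseudocounts of 0.1 and 0.01 and ran from -2.51 to -2.11 on leaving out 1 sample. Over all alternatives it ranged from 0.67 to 2.67 in *PEG3*, -0.04 to 2.28 in *PEG10*, 0.19 to 1.73 in *MEST*, 0.19 to 1.55 in *SGCE*, -2.09 to 0.42 in *GRB10* and -0.81 to 0.56 in *PLAGL1*. The 926 genes past the limits became 1857 with sample weights and, on leaving out 1 sample, 319 (N8) to 1997 (N1), with 603 without T3 and 424 without T10. They were 184 without N8 and N9 and 1894 without N1 and T1. The count of 1 among the other imprinted genes was 4 and 3 with pseudocounts of 0.1 and 0.01, 3 where 1 FPKM in 3 samples was required, 2 after rescaling every library to an equal sum (*BLCAP* and *TFPI2* in place of *RB1*), 2 without the trend, 7 with sample weights, and 0 to 6 on leaving out 1 sample. It was 0 without N8 and N9 and 6 without N1 and T1. Over all tested genes the share past the limits was 7.77% and 7.8% with those pseudocounts, 7.63% with that filter and 5.64% after rescaling. It was 6.86% without the trend, 13.7% with sample weights, 1.36% without N8 and N9 and 14% without N1 and T1. The count of 4 among the IGF and partner genes was 0 to 5 on leaving out 1 sample and 0 without N8 and N9. *GRB10* was at -0.12 without N8 and N9. Rescaling to the same sum moved the median log2 fold change to 0.12 and the share of lower calls from 52.2% to 64.4%, and quantile normalization gave 45.3%. *NNAT*, *RB1*, *IGFBP3*, *HEY1*, *ATP2A1* and *ATP2A3* kept the sign of their log2 fold change in every alternative run.

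The numbers N1 with T1 and N3 with T3 are shared, and the study calls the tissue matched, but no label ties a number to a dog. Deviations from the group means correlated at 0.422 and 0.211 in those pairs. With the number as a fixed replicate block over those 4 samples, 241 genes passed, 0 of the other imprinted genes did, *GRB10* was at 0.42 and *PEG3*, at 2.67, was past the limits, and *RB1* (-1.16), *ATP2A1* (-1.03) and *ATP2A3* (-2.10) were not past the limits. With a random replicate block (consensus correlation 0.456) 1062 genes passed, with 5 of the other imprinted genes, *NNAT* was at -2.26 and *PEG3*, at 2.07, was past the limits, and *ATP2A1* (-4.10) was not past the limits. The cause of these shifts was not tested. Low FPKM, as in *DLK1*, rest on few fragments, and precision there is limited by depth.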
